A study of Homo sapiens with 8 samples.

Results

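The BCL2 family of apoptosis genes is described here by 10 members, chosen by name: the pro-survival genes BCL2, BCL2L1 and MCL1, the pore-forming effectors BAX and BAK1, and the BH3-only genes BBC3, PMAIP1, BCL2L11, BIK and BID. All 10 were found among the 20163 protein-coding genes of GENCODE release 44 on GRCh37, the assembly also called hg19. Peaks of histone H3 lysine 23 succinylation (H3K23su) and histone H3 lysine 27 acetylation (H3K27ac) were read within 2 kb of each transcription start site (TSS), and in each gene body with 50 kb on either side, which is called the locus below.

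The study profiled both marks by CUT&Tag, in which an antibody brings a transposase to the modified chromatin, in HCT15, an established human colon cancer cell line, and in a derivative resistant to 5-fluorouracil (5-FU), a drug that blocks thymidylate synthesis and is given in colon cancer. The original line, HCT15-Pa, is labelled as treated with the solvent DMSO, and the resistant line, HCT15-FR, with 5-FU at 20 μg/mL, and according to the methods HCT15-FR was kept in the drug and then without it before experiments. Each of the 4 combinations of line and mark has 2 libraries, so there are 8 in all. HCT15-FR is 1 resistant line, so the resistance and any other difference between the lines cannot be told apart, and no source says whether replicates were separate cultures, so that p values may measure technical spread.

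The peak lists held 65364 to 68365 H3K23su peaks and 70600 to 76676 H3K27ac peaks per library. They covered 33.3 ± 0.368 Mb (SD, n = 2) in HCT15-Pa and 39.7 ± 0.467 Mb in HCT15-FR for H3K23su, a ratio of 1.19, and the ratio was likewise 1.19 for H3K27ac. Of 10 colon epithelial markers, such as EPCAM and CDX2, 7 had an H3K23su peak and 8 an H3K27ac peak within 2 kb of the TSS in all 4 libraries of the mark, and none had no peak. Their summed covered length was 5.69 to 6.25 kb in HCT15-Pa and 9.02 to 9.17 kb in HCT15-FR for H3K23su, and 10.7 to 11.2 kb and 12.2 kb for H3K27ac. Of 14 markers of blood, stromal, endothelial and neuronal cells, 10 and 9 had no peak of the respective mark in any library, among them PTPRC, CD3E and COL1A2.

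Apoptosis through the mitochondrion is set by the balance within this family. The pro-survival proteins BCL2, BCL-XL (encoded by BCL2L1) and MCL1 hold the other members in check, whereas BAX and BAK form pores in the outer mitochondrial membrane through which cytochrome c leaves and caspases are activated. The BH3-only proteins PUMA (BBC3), NOXA (PMAIP1), BIM (BCL2L11), BIK and BID relay damage and stress to the other members, and in the intestinal epithelium this route removes cells after genotoxic drugs such as 5-FU. H3K27ac marks active promoters and enhancers, and H3K23su is a less studied acylation of the same histone tail that is also found near promoters.

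Of the distal sites in these loci, 6 carried both marks in both libraries of 1 line and neither mark in either library of the other. The central 300 bases of 4 of them are shown because they are places where the lines parted in both marks, in the loci of BCL2, BCL2L1 and BCL2L11, whose values are described below. All are given on the plus strand of GRCh37, and all letters are lower case because none held the letters searched for (described below). The first lies in an intron of BCL2, at chr18:60892929-60893228, and the second is intergenic beyond the 3′ end of BCL2, at chr18:60767052-60767351. The third lies in an intron of BCL2L1, at chr20:30298453-30298752, and the fourth in an intron of ACOXL, upstream of BCL2L11, at chr2:111829184-111829483.
BCL2 intron, HCT15-Pa: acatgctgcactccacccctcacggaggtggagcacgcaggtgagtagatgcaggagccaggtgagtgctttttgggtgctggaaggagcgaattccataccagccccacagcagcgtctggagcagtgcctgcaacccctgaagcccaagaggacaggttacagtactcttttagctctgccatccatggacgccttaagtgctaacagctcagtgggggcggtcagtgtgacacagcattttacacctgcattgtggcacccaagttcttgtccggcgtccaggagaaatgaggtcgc
BCL2 3′ flank, HCT15-Pa: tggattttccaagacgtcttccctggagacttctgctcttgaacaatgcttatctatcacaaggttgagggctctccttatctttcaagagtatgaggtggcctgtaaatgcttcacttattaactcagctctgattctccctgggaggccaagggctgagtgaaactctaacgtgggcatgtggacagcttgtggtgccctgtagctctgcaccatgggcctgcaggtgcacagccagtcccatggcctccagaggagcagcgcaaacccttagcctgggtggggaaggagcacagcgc
BCL2L1 intron, HCT15-FR: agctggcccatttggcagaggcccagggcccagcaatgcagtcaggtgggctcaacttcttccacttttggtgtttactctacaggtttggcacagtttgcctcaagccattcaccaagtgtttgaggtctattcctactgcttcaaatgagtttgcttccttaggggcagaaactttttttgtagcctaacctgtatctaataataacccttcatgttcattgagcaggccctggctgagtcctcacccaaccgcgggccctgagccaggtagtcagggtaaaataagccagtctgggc
BCL2L11 upstream, in ACOXL, HCT15-FR: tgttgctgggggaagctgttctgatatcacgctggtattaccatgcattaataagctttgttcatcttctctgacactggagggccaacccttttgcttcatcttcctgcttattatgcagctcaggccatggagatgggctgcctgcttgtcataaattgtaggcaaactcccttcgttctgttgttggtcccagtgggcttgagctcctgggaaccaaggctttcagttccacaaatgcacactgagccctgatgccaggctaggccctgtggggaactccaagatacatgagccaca

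The 250 bases before the TSS are shown for BCL2L11, because it was the member with the largest H3K27ac difference over its locus. They read on the plus strand of GRCh37, at chr2:111878241-111878490.
BCL2L11 promoter: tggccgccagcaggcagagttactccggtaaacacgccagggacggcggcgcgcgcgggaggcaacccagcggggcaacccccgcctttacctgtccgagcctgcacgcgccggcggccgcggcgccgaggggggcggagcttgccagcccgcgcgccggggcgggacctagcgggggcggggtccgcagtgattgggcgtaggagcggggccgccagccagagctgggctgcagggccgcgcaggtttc
This promoter was rich in G and C, at 76.8%. On either strand it held none of the letters searched for, and is therefore in lower case throughout. The letters were GGGTGTG or GGGCGTG, which KLF factors can bind, found in 16.9% of the 20163 promoters of the same length, the AP-1 letters TGACTCA or TGAGTCA, each the reverse complement of the other, found in 3.06%, and the p53 response element, found in 0.0149%. The p53 response element was searched as the repeated half-site RRRCWWGYYY (R is A or G, W is A or T, Y is C or T). A short gap between half-sites was allowed, and no mismatch. A match of letters in a window is not binding, and no match says only that these letters are not in this window.

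H3K23su lay near the TSS of every member. All 10 had an H3K23su peak within 2 kb of the TSS in all 4 libraries, against 54.7% of all protein-coding genes. For H3K27ac the count was 9 of 10, against 59% of all genes. The exception was BBC3, which had a peak in this window in 1 library only, although its gene body held peaks in all 4. This holds for the canonical TSS, the only one used here. Another annotated BBC3 start lay within 1 kb of the middle of an H3K23su region in the gene body. That region was present in all 4 libraries and overlapped an H3K27ac region that was also present in all 4. The libraries hold many cells each, so fewer cells with a mark and less of the mark per cell cannot be told apart.

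Within the window of 4001 bp centred on the TSS, the length covered by H3K23su peaks, averaged over the 4 libraries of both lines, was longest at BCL2L11, at 1.82 ± 0.527 kb (SD, n = 4), followed by PMAIP1, at 1.65 ± 0.262 kb. BAK1, BID, MCL1 and BAX followed between 1.28 ± 0.342 and 1.17 ± 0.257 kb. The shortest were BCL2 at 0.719 ± 0.147 kb, BIK at 0.465 ± 0.182 kb, BCL2L1 at 0.449 ± 0.191 kb and BBC3 at 0.198 ± 0.212 kb. For H3K27ac the order began with MCL1 at 1.74 ± 0.258 kb, PMAIP1 at 1.67 ± 0.125 kb and BCL2L1 at 1.60 ± 0.302 kb, and again ended with BBC3, at 0.0968 ± 0.194 kb. The ranges of neighbours in either order overlapped, so neighbours did not differ beyond their spread. BCL2L1 thus stood near the bottom of the order by H3K23su and near the top by H3K27ac, although lengths of the 2 marks are not on a common scale, since only H3K27ac peaks are stated to have been called with the broad option.

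Peak strength gave a similar picture for PMAIP1, whose strongest peak near the TSS ranked between the 86th and 95.7th percentile of its own list in all 8 libraries. Here the percentile is the rank of a peak by score within its own list, the score being the −log10 of the MACS2 p value. At BAX it ranked between 82.8 and 94.7. The only H3K27ac peak within 2 kb of the BBC3 TSS, in HCT15-FR replicate 2, ranked at 2.69.

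The next question was whether the lines differed near the TSSs. No member passed the test in either mark within 2 kb of the TSS. The 3 members with the lowest unadjusted p values were BCL2 in H3K27ac, with less covered length in HCT15-FR, BCL2L11 in H3K27ac, with more, and BAK1 in H3K23su, with more.

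**Figure D1:**
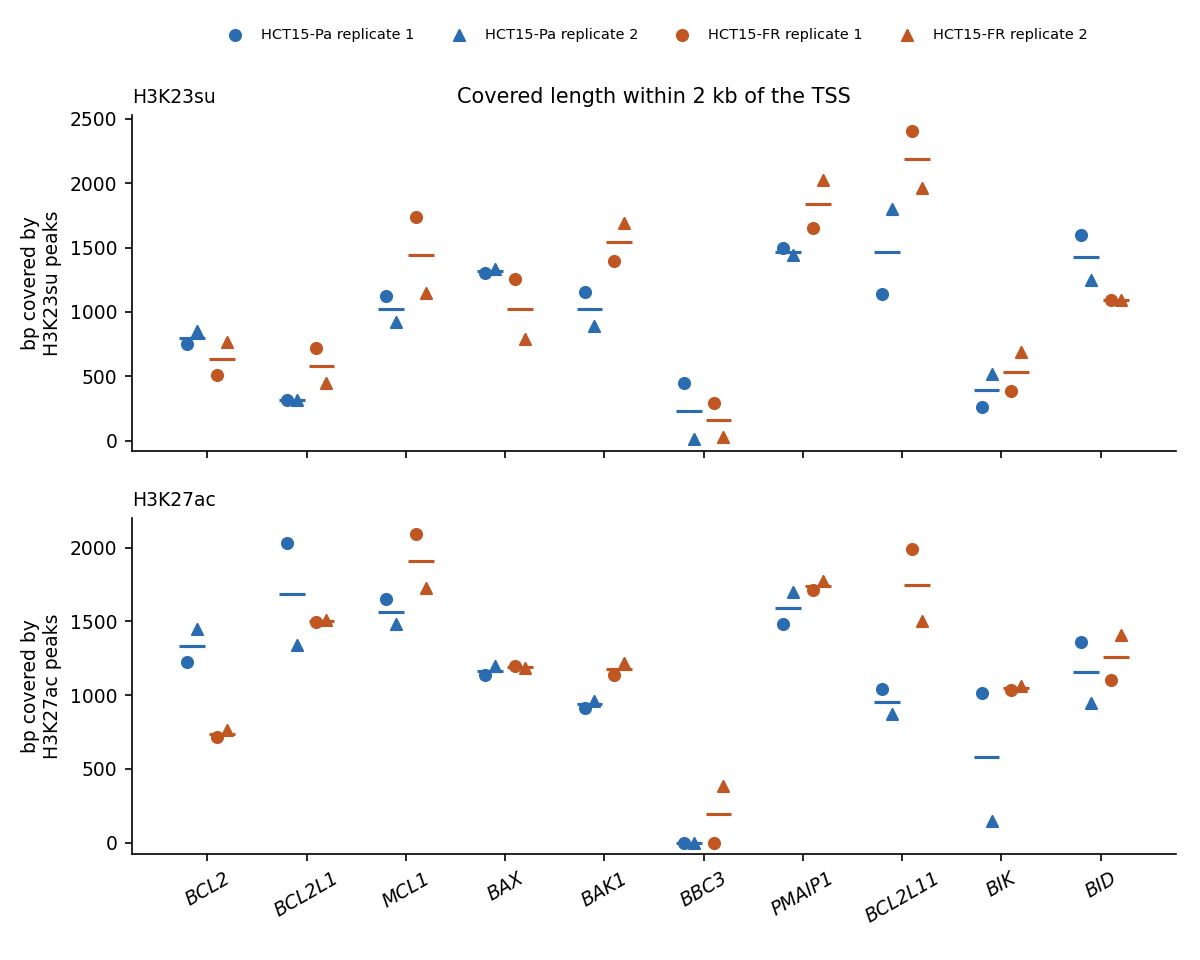
Base pairs within 2 kb of the TSS that were covered by peaks, for H3K23su (top) and H3K27ac (bottom) at each of the 10 members. Each point is 1 library, with the line shown by colour and the replicate number by shape, and each bar is the mean of 2 libraries. Both HCT15-FR libraries lie below both HCT15-Pa libraries for H3K27ac at BCL2, and above them in both marks at BCL2L11.

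BCL2 (ENSG00000171791, chromosome 18, 60790579 to 60987361, minus strand) encodes the founding pro-survival protein. H3K27ac covered 1224 and 1448 bp in HCT15-Pa replicates 1 and 2 and 716 and 762 bp in HCT15-FR replicates 1 and 2. The lines did not overlap, and the difference of HCT15-FR from HCT15-Pa was -597 ± 115 bp (SE), with an adjusted p = 0.134 after Benjamini-Hochberg adjustment (limma). H3K23su covered 749 and 850 bp in HCT15-Pa and 508 and 770 bp in HCT15-FR, which overlapped. The strongest H3K23su peak near this TSS ranked at the 93.1st and 94.2nd percentiles of the HCT15-Pa lists and between 51.3 and 55.6 in HCT15-FR. For H3K27ac it ranked between 86.3 and 91.0 in HCT15-Pa and between 65.0 and 66.2 in HCT15-FR, so both marks had weaker top peaks in both HCT15-FR libraries.

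BCL2L1 (ENSG00000171552, chromosome 20, 30252255 to 30311792, minus strand) had 314 bp of H3K23su in either HCT15-Pa library and 719 and 449 bp in the HCT15-FR libraries. The lines did not overlap, and the strongest H3K23su peak ranked between 7.71 and 26.6 in HCT15-Pa and between 47.0 and 81.2 in HCT15-FR. These strongest peaks lay at different places in each library, as did the peaks behind the equal HCT15-Pa lengths. A peak covering the TSS ranked at 26.6 in HCT15-Pa replicate 1 and at 69.9 and 26.2 in HCT15-FR replicates 1 and 2. HCT15-Pa replicate 2 had none there. At BCL2L1, H3K27ac covered 2034 and 1340 bp in HCT15-Pa and 1497 and 1511 bp in HCT15-FR, and there the lines overlapped. The adjusted p values were 0.340 and 0.751 (limma).

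MCL1 (ENSG00000143384, chromosome 1, 150533371 to 150552214, minus strand) encodes a short-lived pro-survival protein. It had 1123 and 921 bp of H3K23su in HCT15-Pa and 1740 and 1145 bp in HCT15-FR. H3K27ac covered 1650 and 1482 bp in HCT15-Pa and 2093 and 1723 bp in HCT15-FR. Both HCT15-FR libraries lay above both HCT15-Pa libraries in both marks, by 420.5 ± 231 bp and 342 ± 161 bp, with adjusted p values of 0.378 and 0.412 (limma). The ranks of the strongest peak overlapped in both marks. They were 57.4 to 63.8 in HCT15-Pa and 53.8 to 66.9 in HCT15-FR for H3K23su. For H3K27ac they were 90.1 to 90.6 and 86.3 to 91.0.

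Among the effectors, BAX (ENSG00000087088, chromosome 19, 49458072 to 49465055, plus strand) had 1300 and 1333 bp of H3K23su in HCT15-Pa and 1259 and 787 bp in HCT15-FR. Its H3K27ac was nearly level, at 1134 and 1195 bp in HCT15-Pa and 1199 and 1181 bp in HCT15-FR. The H3K23su values of the lines did not overlap, mostly through HCT15-FR replicate 2, and the H3K27ac values did. BAK1 (ENSG00000030110, chromosome 6, 33540324 to 33548070, minus strand) had 1152 and 892 bp of H3K23su in HCT15-Pa and 1394 and 1693 bp in HCT15-FR. Its H3K27ac covered 913 and 960 bp in HCT15-Pa and 1133 and 1215 bp in HCT15-FR, so that HCT15-FR lay above in both marks. The differences at BAK1 were 521.5 ± 171 bp (adjusted p = 0.178) and 237.5 ± 91.6 bp (adjusted p = 0.337, limma). The strongest H3K27ac peak of BAK1 ranked between 86.0 and 91.7 in HCT15-Pa and lower, between 81.8 and 83.9, in HCT15-FR. For H3K23su the ranks overlapped, at 70.7 to 80.1 in HCT15-Pa and 76.3 to 88.2 in HCT15-FR.

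The BH3-only gene BCL2L11 (ENSG00000153094, chromosome 2, 111876955 to 111926021, plus strand) encodes BIM, which binds all the pro-survival proteins. It had 1136 and 1797 bp of H3K23su in HCT15-Pa and 2407 and 1960 bp in HCT15-FR. H3K27ac covered 1041 and 869 bp in HCT15-Pa and 1991 and 1499 bp in HCT15-FR. HCT15-FR lay above HCT15-Pa in both marks, by 717 ± 284 bp (adjusted p = 0.241) and 790 ± 194 bp (adjusted p = 0.185, limma). Peak strength did not differ in the same way. The strongest H3K23su peak ranked between 32.5 and 97.8 in HCT15-Pa and between 61.6 and 74.9 in HCT15-FR. For H3K27ac it ranked between 60.4 and 82.0 in HCT15-Pa and between 53.2 and 73.1 in HCT15-FR, so the ranks overlapped in both marks.

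**Figure D2:**
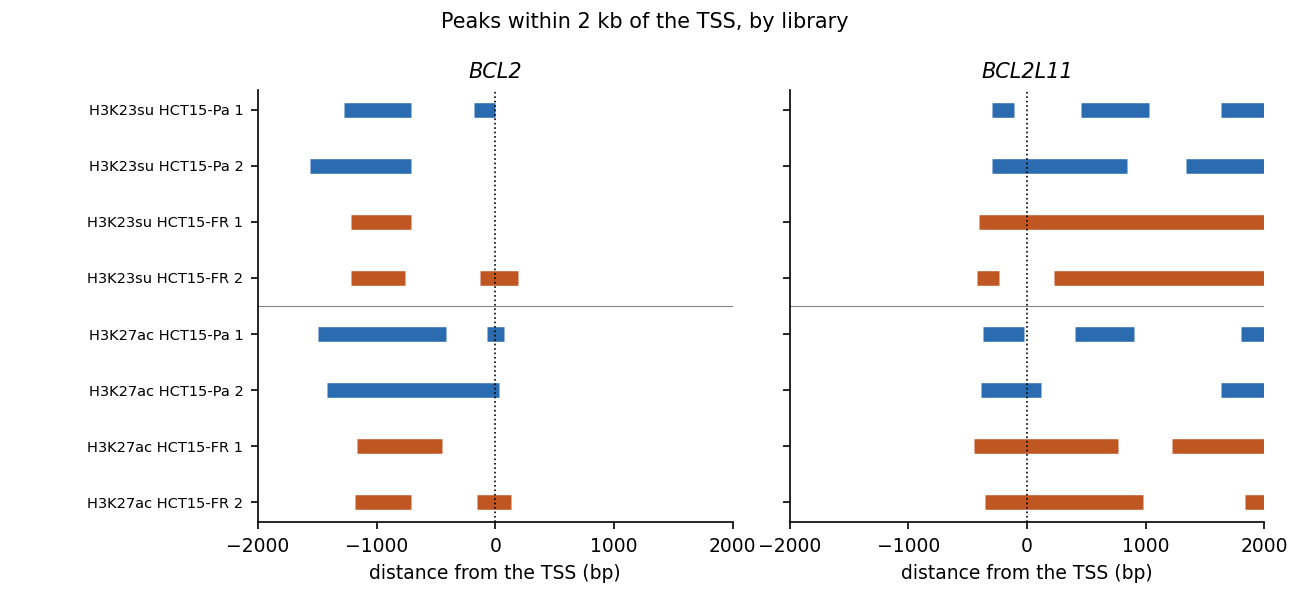
Peaks within 2 kb of the TSS of BCL2 (left) and BCL2L11 (right) in the 8 libraries, 1 row per library, by distance from the TSS in bp, positive in the direction of transcription and clipped at 2 kb. Blue bars are HCT15-Pa peaks and orange bars HCT15-FR peaks. At BCL2 the upstream H3K27ac peak is shorter in both HCT15-FR libraries, and at BCL2L11 the summed length of the peaks in the window is longer in both HCT15-FR libraries of either mark.

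BBC3 (ENSG00000105327, chromosome 19, 47724079 to 47736023, minus strand) encodes PUMA, a p53 target. H3K27ac covered 0 bp in 3 libraries and 387 bp in HCT15-FR replicate 2. Its H3K23su covered 450 and 17 bp in HCT15-Pa and 297 and 29 bp in HCT15-FR, which overlapped. These values are short because the H3K23su peaks began 1551 to 1984 bp after the TSS and crossed the edge of the window. The whole peaks were 642 and 190 bp wide in HCT15-Pa and 1473 and 1209 bp wide in HCT15-FR. Over the whole gene body, H3K27ac peaks covered 2256 and 2536 bp in HCT15-Pa and 2585 and 2420 bp in HCT15-FR.

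PMAIP1 (ENSG00000141682, chromosome 18, 57567228 to 57571537, plus strand), which encodes NOXA, had 1498 and 1440 bp of H3K23su in HCT15-Pa and 1649 and 2023 bp in HCT15-FR. H3K27ac covered 1485 and 1700 bp in HCT15-Pa and 1710 and 1772 bp in HCT15-FR. A peak covered the TSS in all 8 libraries, and the lines did not overlap in either mark, though by only 10 bp for H3K27ac. BIK (ENSG00000100290, chromosome 22, 43506756 to 43525718, plus strand) had 263 and 522 bp of H3K23su in HCT15-Pa and 387 and 686 bp in HCT15-FR, with H3K27ac at 1011 and 146 bp and at 1035 and 1060 bp. The low value of HCT15-Pa replicate 2 made up most of the H3K27ac difference. BID (ENSG00000015475, chromosome 22, 18216904 to 18257536, minus strand), whose product links death receptors to the mitochondrion, had 1600 and 1251 bp of H3K23su in HCT15-Pa and 1096 and 1092 bp in HCT15-FR. Its H3K27ac covered 1362 and 946 bp in HCT15-Pa and 1103 and 1410 bp in HCT15-FR. BID and BAX were the 2 members with H3K23su above in HCT15-Pa.

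Counted over the members, both HCT15-FR libraries lay above both HCT15-Pa libraries at 5 members for H3K23su (43.1% of all genes with a peak) and at 5 for H3K27ac (31.4%), and below them at 2 (8.37%) and 1 (12.8%). In limma 0 of 10 members were called in either mark at an adjusted p under 0.05, with adjusted p values of 0.178 to 0.848 for H3K23su and 0.134 to 0.912 for H3K27ac, and 1 and 2 members had an unadjusted p under 0.05. Over all genes, 0 of 13421 (0%) were called for H3K23su, with 2875 at an unadjusted p under 0.05, and 1 of 14829 for H3K27ac (0.00674%), with 2265. The median difference of HCT15-FR from HCT15-Pa was 207 bp over the members and 148.5 bp over all genes tested for H3K23su, and 171 and 59.5 bp for H3K27ac. An exact permutation test of 2 libraries against 2 cannot give a p below 0.33, so none was run on single genes.

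The wider loci were compared next, to learn whether the lines differed in the gene bodies and flanks. More H3K23su covered the loci of BCL2L1, MCL1, BBC3, BCL2L11 and BIK in HCT15-FR, by 1.97 to 4.07 kb, and more H3K27ac covered those of MCL1, BAX, BCL2L11 and BIK, by 2.11 to 4.20 kb. No locus was called lower in HCT15-FR, and BCL2 was the only member whose mean was lower there, in both marks. MCL1, BCL2L11 and BIK were called in both marks.

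**Figure D3:**
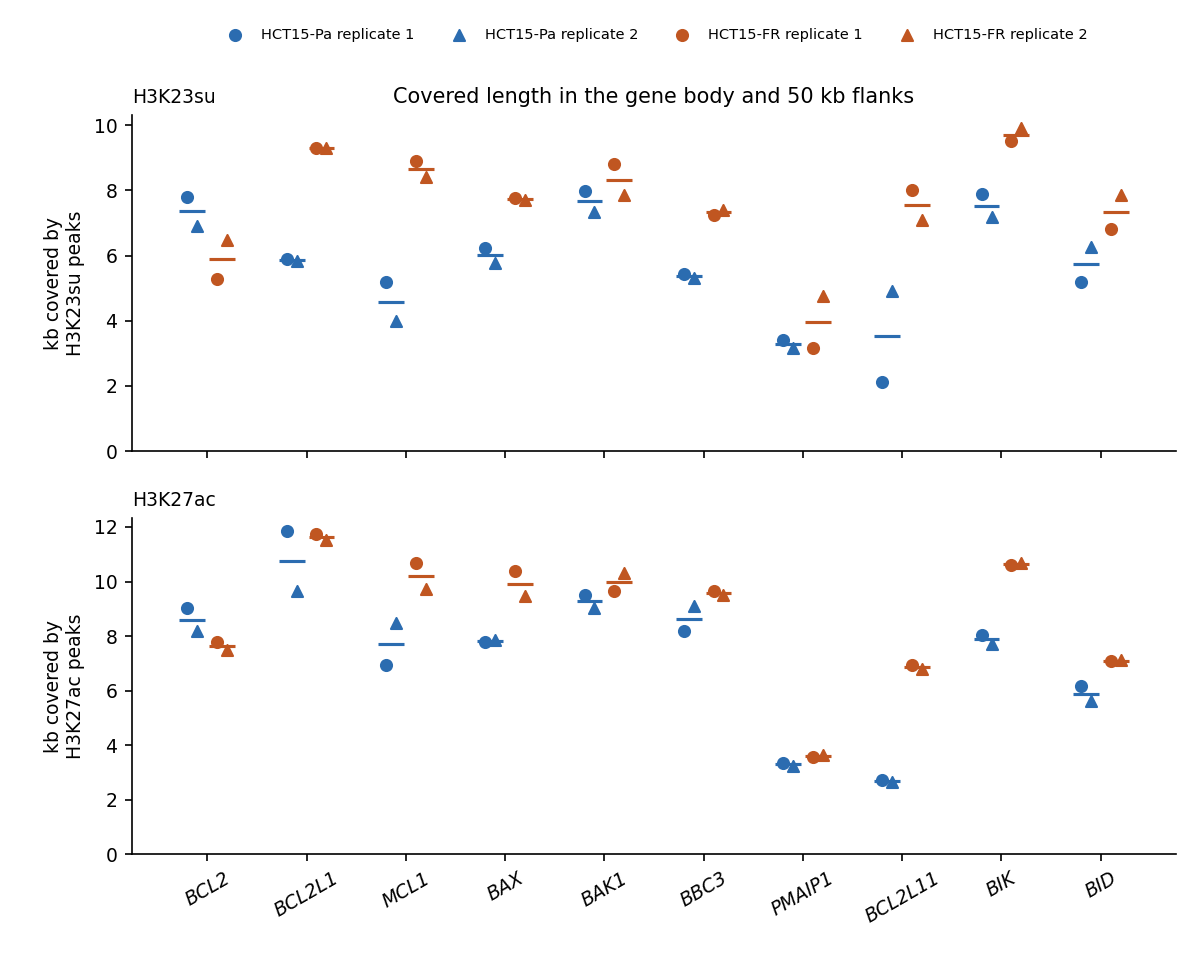
Length in kb covered by H3K23su peaks (top) and H3K27ac peaks (bottom) in the gene body and 50 kb on either side of each member, 1 point per library with the mean of 2 libraries as a bar. The HCT15-FR libraries lie above the HCT15-Pa libraries at BCL2L11 and MCL1 in both marks and below them at BCL2 in both marks.

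BCL2L11 had the largest H3K27ac difference of the members, while for H3K23su MCL1 differed slightly more. H3K27ac covered 2.71 and 2.64 kb in HCT15-Pa and 6.93 and 6.81 kb in HCT15-FR, and H3K23su covered 2.13 and 4.90 kb in HCT15-Pa and 8.01 and 7.09 kb in HCT15-FR. The lines did not overlap in either mark, although the HCT15-Pa replicates lay far apart for H3K23su. The differences were 4.20 ± 0.495 kb for H3K27ac (adjusted p = 0.00119) and 4.03 ± 0.898 kb for H3K23su (adjusted p = 0.0168, limma). The added length lay both in the gene body, where H3K27ac covered 1.45 to 1.52 kb in HCT15-Pa and 2.75 to 3.17 kb in HCT15-FR, and in the flanks, where it covered 1.12 to 1.26 kb and 3.76 to 4.06 kb. No other protein-coding TSS lies in this locus. H3K23su regions in its downstream flank lay in introns of the non-coding gene MIR4435-2HG.

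At MCL1, H3K23su covered 5.18 and 3.99 kb in HCT15-Pa and 8.90 and 8.41 kb in HCT15-FR. H3K27ac covered 6.94 and 8.49 kb in HCT15-Pa and 10.7 and 9.74 kb in HCT15-FR. HCT15-FR lay above in both marks, by 4.07 ± 0.658 kb (adjusted p = 0.00652) and 2.49 ± 0.725 kb (adjusted p = 0.0366, limma). The gene body alone had 1.80 to 1.90 kb of H3K23su in HCT15-Pa and 3.34 to 4.19 kb in HCT15-FR. The flanks also hold the TSSs of ADAMTSL4, ENSA and AL356356.1.

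BCL2L1 had 5.91 and 5.83 kb of H3K23su in HCT15-Pa and 9.29 kb in either HCT15-FR library. H3K27ac covered 11.9 and 9.67 kb in HCT15-Pa and 11.8 and 11.5 kb in HCT15-FR, and here the lines overlapped. The H3K23su difference was 3.42 ± 0.609 kb (adjusted p = 0.00820), and the H3K27ac difference 0.869 ± 0.825 kb (adjusted p = 0.477, limma). The 2 line differences themselves differed by 2.55 ± 1.04 kb in the interaction of line and mark, with an adjusted p = 0.344 (limma), so they were not shown to differ. The locus also holds the TSSs of COX4I2 and TPX2.

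BCL2 had 7.81 and 6.90 kb of H3K23su in HCT15-Pa and 5.28 and 6.48 kb in HCT15-FR. H3K27ac covered 9.01 and 8.17 kb in HCT15-Pa and 7.77 and 7.50 kb in HCT15-FR. Both HCT15-FR libraries lay below both HCT15-Pa libraries in both marks, with differences of -1.47 ± 0.686 kb (adjusted p = 0.145) and -0.961 ± 0.603 kb (adjusted p = 0.277, limma). In the flanks H3K23su covered 4.74 to 5.02 kb in HCT15-Pa and 3.37 to 3.38 kb in HCT15-FR, while in the gene body the lines overlapped, at 1.87 to 3.07 kb and 1.90 to 3.11 kb. For H3K27ac the flanks had 4.90 to 5.98 kb in HCT15-Pa and 4.02 to 4.20 kb in HCT15-FR, whereas in the gene body both HCT15-FR libraries lay above, at 3.29 and 3.745 kb against 3.03 and 3.27 kb. The lower covered length of BCL2 thus lay in the flanks, which also hold the TSS of KDSR. They include the peak just upstream of the BCL2 TSS as well, because the gene body ends at 60987361. For H3K27ac that upstream peak was 1078 bp wide in HCT15-Pa replicate 1 and 716 and 472 bp in HCT15-FR replicates 1 and 2. In HCT15-Pa replicate 2 it was part of a peak of 1448 bp that reached into the gene body.

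Of the effectors, BAX had 6.23 and 5.77 kb of H3K23su in HCT15-Pa and 7.78 and 7.72 kb in HCT15-FR. Its H3K27ac covered 7.78 and 7.84 kb in HCT15-Pa and 10.4 and 9.46 kb in HCT15-FR. The lines did not overlap in either mark, and H3K27ac passed the test, with 2.11 ± 0.621 kb (adjusted p = 0.0382), while H3K23su had 1.75 ± 0.596 kb (adjusted p = 0.0636, limma). The gene body of BAX overlapped between the lines for H3K27ac, at 0.75 to 1.11 kb and 0.93 to 0.97 kb, so the added length lay in the flanks, which also hold the TSSs of DHDH, FTL, GYS1 and RUVBL2. BAK1 had 7.98 and 7.35 kb of H3K23su in HCT15-Pa and 8.81 and 7.84 kb in HCT15-FR, which overlapped. Its H3K27ac covered 9.50 and 9.04 kb in HCT15-Pa and 9.64 and 10.3 kb in HCT15-FR, and the adjusted p values were 0.502 and 0.448 (limma).

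Of the other BH3-only genes, BIK had 7.89 and 7.18 kb of H3K23su in HCT15-Pa and 9.51 and 9.92 kb in HCT15-FR. Its H3K27ac covered 8.05 and 7.71 kb in HCT15-Pa and 10.6 and 10.7 kb in HCT15-FR. Neither mark overlapped, and both passed the test, with 2.18 ± 0.675 kb (adjusted p = 0.0471) and 2.75 ± 0.597 kb (adjusted p = 0.0122, limma), although neither did with scaling (described below). The BIK locus also holds the TSSs of TTLL1, MCAT and TSPO. BBC3 had 5.42 and 5.30 kb of H3K23su in HCT15-Pa and 7.26 and 7.41 kb in HCT15-FR, a difference of 1.97 ± 0.571 kb (adjusted p = 0.0382, limma), which was 0.859 kb and not called with scaling. Its H3K27ac covered 8.18 and 9.09 kb in HCT15-Pa and 9.65 and 9.52 kb in HCT15-FR (adjusted p = 0.299, limma). HCT15-FR lay above for both marks of BBC3, in a locus that also holds the TSSs of CCDC9 and INAFM1.

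PMAIP1 and BID, the remaining BH3-only genes, were called in neither mark. PMAIP1 had 3.41 and 3.16 kb of H3K23su in HCT15-Pa and 3.15 and 4.76 kb in HCT15-FR, with H3K27ac at 3.33 and 3.26 kb and at 3.56 and 3.65 kb. BID had 5.20 and 6.27 kb of H3K23su in HCT15-Pa and 6.80 and 7.85 kb in HCT15-FR, with H3K27ac at 6.16 and 5.63 kb and at 7.08 and 7.11 kb. The H3K23su values of PMAIP1 overlapped and the others did not, and the adjusted p values ran from 0.119 for H3K23su at BID to 0.634 for H3K27ac at PMAIP1 (limma).

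Among the loci, 5 of 10 were called higher in HCT15-FR for H3K23su, against 21.7% of 18675 genes with a peak, and 4 of 10 for H3K27ac, against 20.8% of 19301 genes. None was called lower, against 3.42% and 4.04% of genes. Both HCT15-FR libraries lay above both HCT15-Pa libraries at 7 members for H3K23su (51.9% of all genes) and 8 for H3K27ac (50.4%), and below them at 1 in each (13.2% and 13.7%). The median difference was 1.86 kb over the members and 0.669 kb over all genes for H3K23su, and 1.08 and 0.579 kb for H3K27ac. On the log2 scale the medians were 0.359 over the members and 0.261 over all genes for H3K23su, and 0.206 and 0.185 for H3K27ac. For H3K27ac the members' median was thus close to that of all genes on the log2 scale. No member was called in the interaction of line and mark (0 of 10, limma), with 22 of 19358 genes called over the whole table (0.0465% with a larger difference for H3K23su and 0.0672% with a smaller one, and 0.0465% and 0.031% with scaling to the total covered length), and 1 member, BCL2L1, had an unadjusted p under 0.05.

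The calls changed when the lists were put on 1 scale. With each library scaled to the total covered length of its own list, the H3K23su call remained at MCL1 alone, at 2.93 kb (adjusted p = 0.0334, limma), with 4.73% of genes called higher and 3.84% lower. For H3K27ac it remained at BCL2L11, at 3.41 kb (adjusted p = 0.00448, limma), with 6.34% of genes called higher and 6.28% lower. BCL2 passed the H3K27ac test as lower in HCT15-FR with scaling, by -2.36 kb (adjusted p = 0.0370, limma), but with the stronger 50% of each list as deposited its difference was 0.336 kb, in the other direction. The other calls were lost with scaling. For H3K23su the scaled differences were 2.101 kb at BCL2L1, 0.859 kb at BBC3, 3.07 kb at BCL2L11 and 0.667 kb at BIK (adjusted p = 0.0694, 0.376, 0.0840 and 0.570, limma). For H3K27ac they were 0.962 kb at MCL1, 0.598 kb at BAX and 1.18 kb at BIK (adjusted p = 0.452, 0.571 and 0.232, limma). Scaling took the share of calls that were higher in HCT15-FR from 86.4% to 55.2% for H3K23su and from 83.7% to 50.2% for H3K27ac. Without scaling, the median gene lay 0.26 higher in HCT15-FR on the log2 scale for H3K23su and 0.19 higher for H3K27ac in these windows. With any 1 of the 4 libraries of a mark left out, 0 of the 10 members were called in either mark, and 0 to 2 genes over the whole table, so that setting does not bear on the members in particular.

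**Figure D4:**
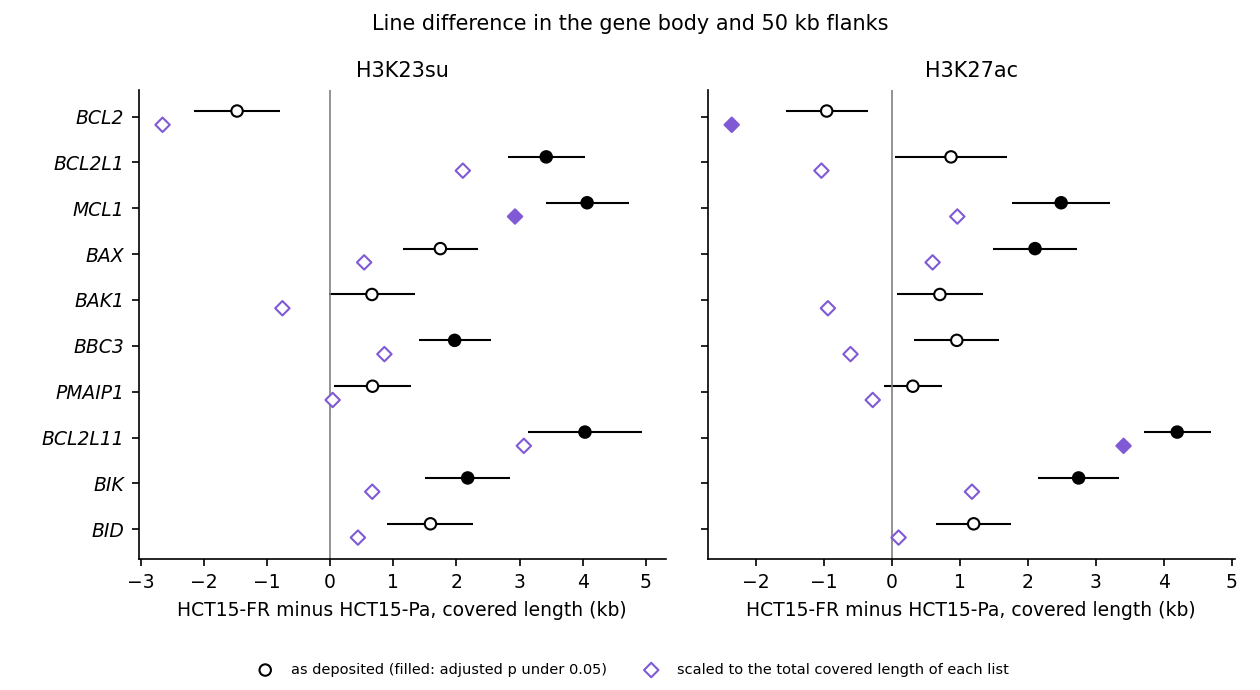
Difference of HCT15-FR from HCT15-Pa in covered length (kb) over the gene body and 50 kb flanks, for H3K23su (left) and H3K27ac (right). Circles are differences as deposited with their SE, n = 2 per line, diamonds are differences after scaling, and filled symbols passed the test. BCL2 lies left of 0 in both marks under both scalings, and BCL2L11 and MCL1 lie right of 0.

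The ratios of the loci were then set beside those of the surrounding chromosome, 5 Mb on either side with the locus left out. Covered length at BCL2L11 was 2.15 times as long in HCT15-FR as in HCT15-Pa for H3K23su and 2.57 times for H3K27ac, whereas the ratios over the surroundings were both 1.27. The MCL1 locus had ratios of 1.89 and 1.32, with 1.19 and 1.13 around it, and BCL2L1 had 1.58 and 1.08, with 1.10 and 1.03 around it. At BCL2 the locus ratios were 0.800 and 0.888, while the surrounding ratios were 1.13 and 1.36. BAK1 was likewise below its surroundings in both marks, with locus ratios of 1.09 and 1.08 and surrounding ratios of 1.39 and 1.32. The BIK locus had ratios of 1.29 and 1.35, with 1.26 and 1.18 around it, and BID 1.28 and 1.20, with 1.19 and 1.06 around it. The marks parted at BAX, with locus ratios of 1.29 and 1.27 and surrounding ratios of 1.36 and 1.19, at BBC3 (1.37 and 1.11, with 1.33 and 1.15 around it) and at PMAIP1 (1.20 and 1.09, with 1.15 and 1.33 around it). No test was made of these ratios.

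Peaks were also merged into regions across the 4 libraries of a mark, to ask where the lines parted. A region was called FR-only where it held a peak of both HCT15-FR replicates and of no HCT15-Pa replicate, and Pa-only in the reverse case. Of the 29 such regions, 1, an H3K27ac region in an intron of BAK1, lay within 2 kb of a member TSS, a window of 4001 bp in loci 104 to 297 kb long. FR-only H3K23su regions lay at MCL1 (4), BCL2L1 (3), BCL2L11 (3) and BID (1), and FR-only H3K27ac regions at BCL2L1 (3), BIK (3), BCL2L11 (2), MCL1 (1) and BAK1 (1). Pa-only regions lay at BCL2 (2) and BAK1 (1) for H3K23su, and at BCL2 (2), BCL2L1, BAK1 and PMAIP1 (1 each) for H3K27ac. BAX and BBC3 had neither kind.

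**Figure D5:**
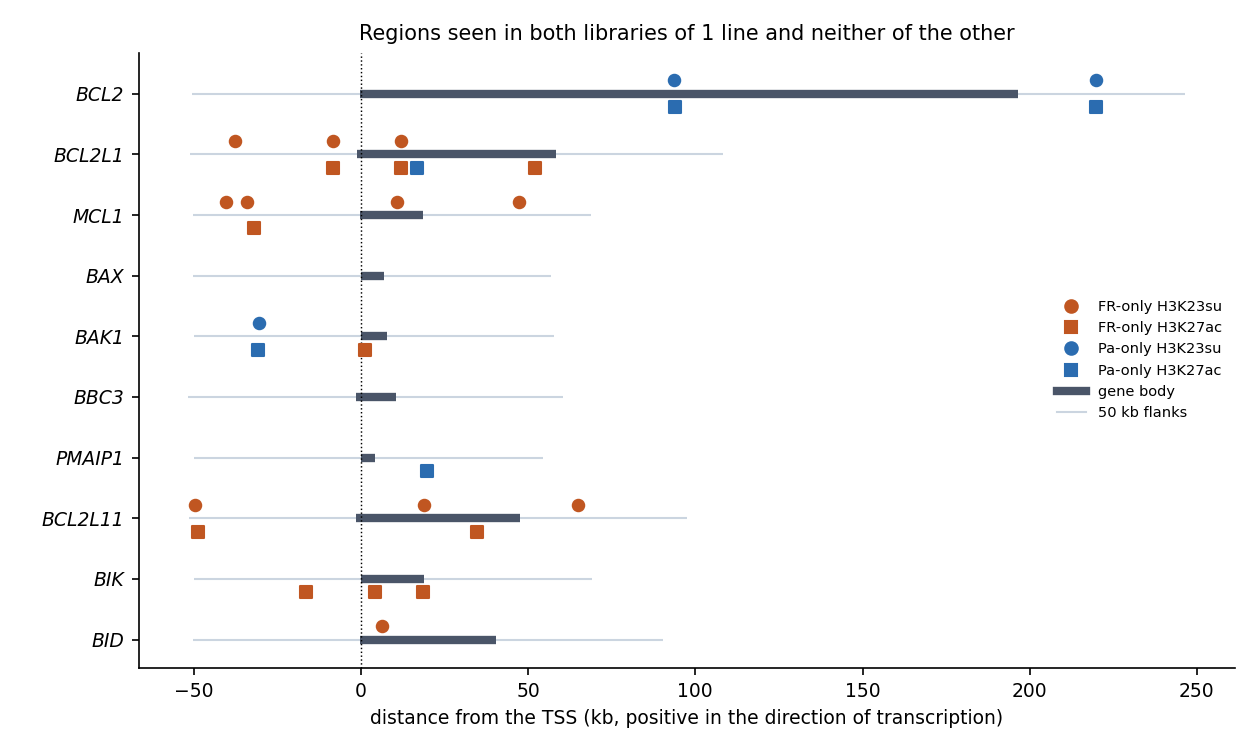
FR-only (orange) and Pa-only (blue) regions of H3K23su (circles) and H3K27ac (squares) in the 10 loci, by distance from the TSS in kb, positive in the direction of transcription. Thick bars are gene bodies and thin lines the 50 kb flanks. The 4 symbols at BCL2 are all Pa-only, and those at MCL1 and BCL2L11 are all FR-only.

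The member loci held 157 H3K23su regions, of which 11 were FR-only, or 7.01%, against 7.95% of all regions, and 3 were Pa-only, or 1.91%, against 5.01%. Of their 159 H3K27ac regions, 10 were FR-only, or 6.29%, against 9.08%, and 5 were Pa-only, or 3.14%, against 4.53%. The FR-only and Pa-only shares did not exceed the background. Shared regions, present in all 4 libraries, made up 39.5% of H3K23su regions (23.9% of all regions) and 42.1% of H3K27ac regions (25.2%). Where a list held no peak, none passed the calling threshold, and the mark may still be present below it.

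At the BCL2 intron site, HCT15-Pa had H3K23su peaks at the 57.9th and 69.8th percentiles of the lists and H3K27ac peaks at the 34.1st and 83.2nd. At the site beyond the 3′ end the H3K23su percentiles were 96.7 and 55.3 and the H3K27ac percentiles 71.8 and 36.6. These sites lie 93.9 kb and 219.8 kb downstream of the TSS, and HCT15-FR had no peak of either mark at them. The third Pa-only site with both marks lies between BAK1 and ITPR3, 30.6 kb upstream of the BAK1 TSS, with H3K23su at percentiles 54.0 and 41.8 and H3K27ac at 62.2 and 59.9.

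The BCL2L1 intron site lies 12.1 kb downstream of the TSS, with H3K23su at percentiles 83.7 and 46.3 in HCT15-FR and H3K27ac at 31.4 and 64.1. A second FR-only site with both marks lies 8.21 kb upstream of the BCL2L1 TSS, with the H3K23su percentiles at 55.4 and 23.3 and the H3K27ac percentiles at 61.3 and 24.9. At the ACOXL intron site, 49.2 kb upstream of the BCL2L11 TSS, the H3K23su percentiles were 26.5 and 20.4 and the H3K27ac percentiles 58.7 and 60.9. Its H3K23su peaks were thus among the weaker ones of their lists, and this site lies at the edge of the locus.

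Ranked by the weaker of the 2 replicates, the strongest FR-only region was an H3K27ac region in an intron of ENSA, 32.0 kb upstream of the MCL1 TSS, at chr1:150583608-150584578, at percentiles 91.7 and 91.1 of the HCT15-FR lists. The overlapping H3K23su region had peaks in 3 of the 4 libraries. Next in strength came an H3K27ac region 16.4 kb upstream of BIK, at chr22:43489962-43490730, at percentiles 75.1 and 84.1, and an H3K27ac region in an intron of BCL2L11, at chr2:111912983-111913422, at percentiles 63.0 and 81.6. In H3K23su the strongest by the same ranking was 47.2 kb downstream of the MCL1 TSS, at chr1:150504358-150505456, at percentiles 65.2 and 60.0, while the BCL2L1 intron region had the higher top peak.

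In the central 300 bp of the FR-only regions, AP-1 letters were found at MCL1 and at no other member, and 3 of the matches are shown with 20 bases on either side, chosen after the matches were seen. All are on the plus strand of GRCh37, with the match in capitals. The first comes from the H3K23su region 47.2 kb downstream of the TSS (chr1:150504870-150504916), the second from an H3K23su region in an intron of ENSA (chr1:150586110-150586156), and the third from the strong H3K27ac region upstream (chr1:150584145-150584191).
MCL1 downstream, H3K23su: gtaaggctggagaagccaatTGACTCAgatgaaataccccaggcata
ENSA intron, H3K23su: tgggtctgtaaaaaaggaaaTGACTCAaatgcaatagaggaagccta
ENSA intron, H3K27ac: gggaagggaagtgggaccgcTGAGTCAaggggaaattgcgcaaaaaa
In all, 2 of the 11 FR-only H3K23su regions and 1 of the 10 FR-only H3K27ac regions of the members held these letters. Among all regions the shares were 10.3% for H3K23su and 10.9% for H3K27ac, and among all FR-only regions 16.8% and 19.6%. KLF letters were in 0 of 11 and 3 of 10 of the member regions, against 13.5% and 12.8% of all FR-only regions. No FR-only or Pa-only region of the members held the p53 response element, which was in 0.0751% of all H3K23su regions and 0.0755% of all H3K27ac regions. With a pattern this rare, its absence from so few regions says nothing about p53 sites at these genes.

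The other genes of the pathway were read in the same way, from 4 lists. Within 2 kb of the TSS none of their 43 genes was called in either mark (limma). Over the loci, the further BCL2 family members had 5 of 11 called higher for H3K23su and 3 of 11 for H3K27ac, the mitochondrial and caspase genes 3 and 2 of 15, the death receptor genes 2 and 2 of 8, and the p53 genes 2 and 2 of 9. No gene of the 4 lists was called lower. The background is the 21.7% and 20.8% given above, and the same limits on these calls apply. Genes that lie close together share part of their loci, and so of their peaks, so their calls are not independent. The flank of BID, for example, holds introns of BCL2L13, a gene of the first list.

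TP73, a p53 relative, had the largest difference of these genes in either mark. H3K23su covered 6.35 and 6.52 kb of its locus in HCT15-Pa and 14.0 and 14.9 kb in HCT15-FR, a difference of 8.02 ± 0.746 kb (adjusted p = 0.00198, limma). H3K27ac covered 7.86 and 8.86 kb in HCT15-Pa and 15.4 and 14.6 kb in HCT15-FR, a difference of 6.62 ± 0.716 kb (adjusted p = 0.000903). CDKN1A, which encodes the cell cycle inhibitor p21, differed by 2.62 ± 0.652 kb in H3K23su and 2.64 ± 0.569 kb in H3K27ac (adjusted p = 0.0233 and 0.0119). Both genes thus had more of both marks in both HCT15-FR libraries.

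BAD, a BH3-only gene regulated by survival kinases, had 7.83 and 8.79 kb of H3K23su in HCT15-Pa and 14.9 and 16.1 kb in HCT15-FR, a difference of 7.17 ± 0.864 kb (adjusted p = 0.00317, limma). BCL2L14 was called in both marks, by 3.16 ± 0.963 kb for H3K23su (adjusted p = 0.0447) and 2.14 ± 0.479 kb for H3K27ac (adjusted p = 0.0137). HRK, a BH3-only gene, and BCL2L10 were called for H3K27ac, by 2.12 ± 0.471 kb and 2.12 ± 0.537 kb (adjusted p = 0.0134 and 0.0221). BIRC2, an inhibitor of apoptosis protein gene, was called in both marks, by 2.56 ± 0.698 kb and 2.21 ± 0.589 kb (adjusted p = 0.0315 and 0.0267). CASP9, the initiator caspase of the mitochondrial route, had 2.18 and 1.79 kb of H3K23su in HCT15-Pa and 3.94 and 3.98 kb in HCT15-FR (adjusted p = 0.0157). Its relative CASP10 had 4.53 and 4.36 kb of H3K23su in HCT15-Pa and 6.02 and 6.39 kb in HCT15-FR (adjusted p = 0.0471), and BIRC3 was called for H3K27ac, by 1.69 ± 0.520 kb (adjusted p = 0.0444). The death receptor gene TNFRSF1A was also called in both marks, by 3.10 ± 0.872 kb and 2.75 ± 0.863 kb (adjusted p = 0.0350 and 0.0472). Its adaptor gene TRADD was called for H3K23su, by 2.71 ± 0.660 kb (adjusted p = 0.0219), and the TRAIL receptor gene TNFRSF10B for H3K27ac, by 2.88 ± 0.762 kb (adjusted p = 0.0258). In the mark or marks in which it was called, each of these genes had the longer covered lengths in HCT15-FR. For H3K27ac, in which CASP10 was not called, its difference was -0.4275 kb.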

How the data were processed

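Peak lists of 8 CUT&Tag libraries were used, 2 of each line for each mark. The authors mapped read pairs to hg19 (Bowtie2), filtered them to unique, proper and non-duplicate pairs (SAMtools) and ran MACS2 on each library, with the broad option stated for H3K27ac. The deposited score is the −log10 of the MACS2 p value. The lists hold no read counts, so read depth is unknown from them. The authors give read mapping statistics in their supplementary information, which were not used here.

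Peaks were read on GRCh37 with GENCODE release 44, 1 canonical TSS per gene. Covered length per gene and library was compared between lines with limma 3.58.1 (R 4.3.3) on bp with an intensity trend, over all protein-coding genes with a peak in at least 1 library of the mark, with Benjamini-Hochberg adjustment and a threshold of 0.05. The interaction of line and mark used all 8 libraries. Regions were peaks of the 4 libraries of a mark merged where they touched, and 1 bp of overlap counted as presence. The members and lists were chosen with earlier results of these data known. All 10 members are named, other pathway genes where they passed the test (at most 4 per list and window), and of the FR-only and Pa-only regions those that carried both marks or whose weaker peak ranked highest. PECAM1, on the marker list, had no match in the annotation. The replicate numbers were not shown to pair libraries. The alternatives were log2(bp + 200), scaling to the total covered length, no filter on genes, other TSSs, windows of 1 and 5 kb, flanks of 20 and 100 kb, the stronger 50% of each list, a score minimum shared by all lists, lists cut to 1 length, merging within 500 bp, presence at 50% of a region, a replicate block and leaving out each library. Sequences came from GRCh37. The fit was tested on simulated data. The other tools were samtools 1.23.1, pysam 0.24.0, matplotlib 3.10.9, scipy 1.17.1, pandas 2.3.3, numpy 2.4.6 and Python 3.11.15.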

Additional observations from a re-analysis of the deposited data

How the results depend on the processing

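Read depth is not in the lists, and 2 libraries per line limit every call. Within 2 kb of the TSS 0 of 10 members were called under each alternative run, and no member was called in the interaction of line and mark under any. The TSS counts do not measure stability, since 0 and 1 genes were called there over the whole table. For H3K23su the 5 calls became 3 on the log2(bp + 200) scale, 1 with scaling to the total covered length and 1 with no filter on genes, and 0 with each library left out. For H3K27ac the 4 calls became 2 with scaling (BCL2L11, and BCL2 as a new call in the lower direction), 2 with no filter, 1 with the stronger 50% of each list and 2 with 20 kb flanks, and 0 with each library left out. All 9 called differences kept their direction under the alternatives run. The cause was not tested beyond these settings.

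The difference between replicates 1 and 2 in HCT15-Pa was uncorrelated over genes with that in HCT15-FR. The correlations were 0.0178 for H3K23su and -0.0118 for H3K27ac over the loci. With a replicate block 5 and 4 members were called over the loci and 0 and 0 at the TSSs. The block took the genes called at the TSSs from 0 to 878 for H3K23su and from 1 to 122 for H3K27ac. Those counts were 194 and 59 with every protein-coding TSS, 25 and 58 with no filter on genes, 0 and 89 with 5 kb around the TSS, and for H3K23su 406 without HCT15-Pa replicate 2. Other counts over all genes moved by more than 1.5 times. The 4697 H3K23su and 4787 H3K27ac locus calls became 1600 and 2436 with scaling, 1072 and 1882 with no filter, 2086 and 2699 with the stronger 50%, 2709 and 2806 with 20 kb flanks and 7274 and 7114 with 100 kb flanks. They were 0 to 2 with each library left out, so the members' counts of 0 there do not measure their stability. The 22 genes called in the interaction over the loci became 97 with 100 kb flanks, 2 with 20 kb flanks, 81 with no filter, 76 with the stronger 50%, 14 with equal list lengths, 0 on the log2 scale and 0 to 73 with each library left out. At the TSSs that count went from 0 to 100 with no filter, 52 with the stronger 50%, 4 on the log2 scale and 0 to 880 with each library left out, none of them a member.

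The counts of line-specific regions followed the definition. The 11 FR-only H3K23su regions became 6 with 20 kb flanks, 17 with 100 kb flanks, 23 with 50% of the region covered, 33 and 39 within replicate numbers 1 and 2 (the replicate block), and 16 to 31 with each library left out. The 3 Pa-only H3K23su regions became 6 with the stronger 50%, 1 and 6 with 20 and 100 kb flanks, 5 with 50% covered, 5 with merging within 500 bp, 18 and 21 within the replicate numbers, and 6 to 17 without each library. The 10 FR-only H3K27ac regions became 21 with 100 kb flanks, 16 with 50% covered, 30 and 27 within the replicate numbers, and 13 to 29 without each library. The 5 Pa-only H3K27ac regions became 1 with the stronger 50%, 3 with 20 kb flanks, 9 with 50% covered, 3 with merging within 500 bp, 25 and 22 within the replicate numbers, and 6 to 25 without each library.

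A change of sign occurred 27 times, each at a difference that was not called. Scaling moved all genes: the H3K27ac median went from 59.5 to -119.8 bp at the TSSs and from 579 to -133 bp over the loci, and the H3K23su median over the loci from 669 to 41.1 bp. With that shift, H3K27ac at the TSS became -0.177 kb for BAX, -0.138 kb for PMAIP1 and -0.102 kb for BID, and over the locus -1.04 kb for BCL2L1, -0.943 kb for BAK1, -0.610 kb for BBC3 and -0.283 kb for PMAIP1, while H3K23su over the BAK1 locus became -0.756 kb. With 1 kb around the TSS, H3K23su became 0.042 kb for BCL2 and 0.281 kb for BID, and H3K27ac 0.067 kb for BCL2L1 and -0.014 kb for MCL1. With 5 kb, BBC3 became 0.702 kb in H3K23su and -0.065 kb in H3K27ac. With the stronger 50%, H3K23su at the TSS became 0.163 kb for BBC3 and -0.393 kb for BIK, and H3K27ac over the BCL2 locus 0.336 kb. With equal list lengths, H3K27ac at the BID TSS became -0.057 kb. With each library left out, the H3K23su difference at the TSS ran from -0.287 to 0.146 kb for BBC3 and from -0.0055 to 0.294 kb for BIK, and the H3K27ac difference from -0.530 to 0.164 kb for BCL2L1, from -0.005 to 0.056 kb for BAX and from -0.106 to 0.311 kb for BID. Over the locus, H3K23su ran from -0.132 to 1.47 kb for PMAIP1 and H3K27ac from -0.224 to 1.96 kb for BCL2L1.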
